A study of Mus musculus with 15 samples.

Results

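Hearts of mice that lacked MAT1 in heart muscle cells were compared with control hearts at 2 weeks of age, the earlier of the ages sampled. The comparison took the 4 knockout and 3 control arrays of that age, chosen by genotype and age in the labels, which is 7 of the 15 arrays of the series. Knockout mice, labelled MAT1 CKO, had a Cre recombinase under the alpha-myosin heavy chain (αMHC) promoter and both copies of the MAT1 gene flanked by recombination sites (MAT1 F/F). Controls, labelled MAT1 control, were littermates with the same Cre and 1 such copy beside a wild-type copy (MAT1 F/+). Both groups therefore carried Cre, and control heart muscle cells could also have lost 1 copy. The promoter drives Cre in heart muscle cells, so the other cells of the heart keep the gene. Total RNA of the heart was labelled with biotin and hybridised to one-colour arrays, which report 1 intensity for each group of probes, a probe set. The 8 arrays at 4 weeks, from 3 control and 5 knockout samples of the same genotypes, are used only to set the differences at 2 weeks beside those at the later age.

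MAT1, encoded by Mnat1, holds together the kinase CDK7 and its cyclin, and docks this kinase on TFIIH, the general transcription factor that opens DNA at promoters and takes part in DNA repair. The kinase phosphorylates the tail of RNA polymerase II, and it also acts on other kinases and on nuclear receptors. In heart muscle, a stressed or failing ventricle returns to genes of the fetal heart, among them skeletal alpha-actin and the natriuretic peptides, while genes of fatty acid oxidation and calcium cycling fall.

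By correlation over all probe sets the arrays fell into 2 array sets, which the labels do not give. At 2 weeks, set 1 held control replicate 3 and knockout replicates 3 and 4, and set 2 held control replicates 1 and 2 and knockout replicates 1 and 2. Among the 2-week arrays correlations were 0.965 or more within a set and 0.917 or less between sets. Each test is therefore given without a block and with a block for the array set, and the differences within each set are named for the genes that changed. Array medians ran from 177.2 to 215.3. Xist against Uty gave 1 female among the 3 control and 1 among the 4 knockout arrays. At 4 weeks control replicate 1 and knockout replicates 1 to 4 read as female and the rest as male, so sex partly followed genotype at that age. Of the defining markers of heart muscle cells 9 had a probe set, from Myh6 and Tnnt2 to Ryr2, and their intensities on the 2-week arrays ran from 1947 for Ryr2 to 12275 for Myh6, against a floor of 0.95. Whether the samples of a group are separate mice is not stated in the labels, and p-values then cover only the spread between these samples, which may be technical.

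A total of 4950 genes was tested, and a gene is called where the adjusted p was under 0.05. Only Acta1 was called without a block, which is 0.0202% of the genes tested, and 51 genes (1.03%) had an unadjusted p under 0.05. A block for the array set gave 4 called genes, or 0.0808%, and 271 (5.47%) at the unadjusted threshold. Of these 4, Acta1, Nppa and Ankrd1 rose (0.0606% called higher) and Grcc10 fell (0.0202% called lower). With the replicate number as a block in its place, which leaves knockout replicate 4 without a partner and so out of the difference, Acta1 (1.30, adjusted p = 0.000535) and Nppa (1.86, adjusted p = 0.000137) were called, and Ankrd1 (adjusted p = 0.246) and Grcc10 (adjusted p = 0.726) were not. The median standard error of a 2-week difference was 0.24 on the log2 scale, and 0.13 with the block. The median half-width of a 95% interval was 0.51 without the block and 0.28 with it. For a typical gene a smaller difference would miss even an unadjusted p of 0.05, and a call needs a larger one. A gene that was not called is therefore not shown to be unchanged.

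The genes that rose are known products of the stressed or developing heart. Their upstream sequences are shown, with that of Actc1, the cardiac alpha-actin gene, which was not called. The 250 bases before the RefSeq transcription start are given on the sense strand (GRCm38.p6), at chr8:123894776-123895025 on the minus strand for Acta1, chr4:148000472-148000721 on the plus strand for Nppa, chr19:36119845-36120094 on the minus strand for Ankrd1 and chr2:114052876-114053125 on the minus strand for Actc1. Capitals mark matches, on either strand, to the CArG box of serum response factor, to CATTCC of TEAD factors and to GATAA of GATA factors. The CArG box was taken as CCWWWWWWGG, where W is A or T, and only exact matches were marked.
Acta1: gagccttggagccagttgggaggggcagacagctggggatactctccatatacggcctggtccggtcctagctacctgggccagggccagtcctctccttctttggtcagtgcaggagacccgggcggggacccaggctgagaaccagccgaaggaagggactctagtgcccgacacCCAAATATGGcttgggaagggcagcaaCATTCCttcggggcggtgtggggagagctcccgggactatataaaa
Nppa: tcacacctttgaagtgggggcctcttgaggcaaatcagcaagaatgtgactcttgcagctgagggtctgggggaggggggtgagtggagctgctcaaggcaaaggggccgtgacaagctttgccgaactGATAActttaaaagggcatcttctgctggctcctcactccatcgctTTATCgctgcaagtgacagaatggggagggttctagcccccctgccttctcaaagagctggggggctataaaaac
Ankrd1: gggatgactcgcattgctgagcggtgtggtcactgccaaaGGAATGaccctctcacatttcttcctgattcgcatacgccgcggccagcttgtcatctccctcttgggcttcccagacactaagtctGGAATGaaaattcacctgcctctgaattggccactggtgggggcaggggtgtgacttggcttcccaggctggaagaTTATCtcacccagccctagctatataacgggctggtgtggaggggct
Actc1: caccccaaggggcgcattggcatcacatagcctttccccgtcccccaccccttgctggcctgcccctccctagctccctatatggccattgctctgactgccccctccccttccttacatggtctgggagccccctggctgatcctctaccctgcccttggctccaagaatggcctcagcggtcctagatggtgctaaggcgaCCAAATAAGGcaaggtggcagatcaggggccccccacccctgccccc
Acta1 held 1 CArG box, whose first base lay 73 bases before the start, and CATTCC at 46 bases. Actc1 held 1 CArG box at 47 bases. The window of Nppa held no exact match to the CArG box, and GATAA at 121 and 75 bases. That of Ankrd1 held no exact CArG match either, CATTCC at 210 and 123 bases and GATAA at 47. Looser matches to the CArG box were not sought, so a related element in these windows would not be marked. Among 32817 RefSeq promoter windows of the same length, 1.47% held a CArG box, 12.6% CATTCC and 22.6% GATAA. These matches describe letters and were not tested as binding sites.

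Acta1 encodes skeletal alpha-actin, an actin of the thin filament that the heart makes before birth and again under load. Its intensity was 2455, 2904 and 2805 in the control arrays and 6375, 6802, 6924 and 8046 in the knockout arrays. All 4 knockout arrays lay above all 3 controls, with a gap wider than the spread within either group. The control mean was 2721 ± 236 (SD, n = 3) and the knockout mean 7037 ± 712 (SD, n = 4). The difference was 1.36 ± 0.12 (SE, log2; a 2.57-fold change) with an adjusted p of 5.74e-05, and 1.37 ± 0.11 with the block (95% interval 1.13 to 1.60, adjusted p = 8.69e-06). It was 1.41 within set 1 and 1.30 within set 2. Actc1 was read at 8806 to 10300.2 in control and 9543 to 10135 in knockout hearts, and its difference of 0.06 ± 0.07 was not called (0.08 with the block, 95% interval −0.02 to 0.18). A second Actc1 probe set differed by 0.01 ± 0.06 with the block.

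Nppa encodes atrial natriuretic peptide, a hormone of the atria that ventricles make before birth and when stressed. Its intensity was 988, 935 and 435 in control and 3541, 4160.4, 1362 and 1914 in knockout arrays. All 4 knockout arrays lay above all 3 controls, and the arrays of set 1 were the lowest of both groups. The difference was 1.73 ± 0.35 without a block, which was not called (adjusted p = 0.317), and 1.85 ± 0.19 with the array set blocked (95% interval 1.45 to 2.25, adjusted p = 0.00011). It was 1.85 within set 1 and 1.98 within set 2. Nppb, which encodes brain natriuretic peptide, had 2057 to 3232 in control and 2547 to 4077 in knockout hearts. Its groups overlapped and its difference was not called (0.19 ± 0.20, and 0.26 ± 0.10 with the block, adjusted p = 0.763).

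Because Nppa is also an atrial gene, the other atrial and conduction markers are given beside it. Of the 5 tested markers Nppa alone was above 0 with and without the block, and Myl7, Myl4, Stard10 and Gja5 were below it. Myl7, the atrial regulatory light chain, had 2204, 2125 and 640 in control and 1379, 483, 690 and 584 in knockout arrays. Control replicates 1 and 2 and knockout replicate 1 were thus the highest, and the difference of −0.99 ± 0.43 was not called (−0.88 with the block, adjusted p = 0.744). It was −0.01 within set 1 and −1.39 within set 2. Myl4, the atrial essential light chain, chosen like Stard10 and Gja5 after its values were seen, had the same arrays highest, with 1956, 1932 and 1703 against 679 to 895 on the other 4. The summed intensity of 11 atrial markers, Nppa included, ran from 2956 to 6308 in control and from 4160 to 7658 in knockout hearts. In each array set Nppa was higher in every knockout than in every control array. The part of atrial tissue in these values was not tested.

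Ankrd1 encodes a cardiac ankyrin repeat protein that binds titin and is induced by stretch. Its intensity was 3730.0, 3872 and 3156 in control and 5035, 5107, 4621 and 4889 in knockout arrays. The groups did not overlap. The difference was 0.46 ± 0.09 without a block (adjusted p = 0.317) and 0.47 ± 0.08 with it (95% interval 0.31 to 0.64, adjusted p = 0.0208), and it was 0.59 within set 1 and 0.41 within set 2. This call is close to the threshold: with the block it was lost in 6 of the 7 fits that left out 1 array of this age (adjusted p 0.0392 to 0.359, under 0.05 only without control replicate 2).

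Grcc10 was the only gene called lower. Its intensity was 2152, 2117 and 1846 in control and 1606, 1551, 1206 and 1235 in knockout arrays, so that all knockout arrays lay below all controls. The difference was −0.55 ± 0.14 without a block (adjusted p = 1) and −0.50 ± 0.07 with it (95% interval −0.65 to −0.35, adjusted p = 0.00379). It was −0.59 within set 1 and −0.43 within set 2. Without control replicate 3 the call with the block was lost (adjusted p = 0.0712).

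**Figure D1:**
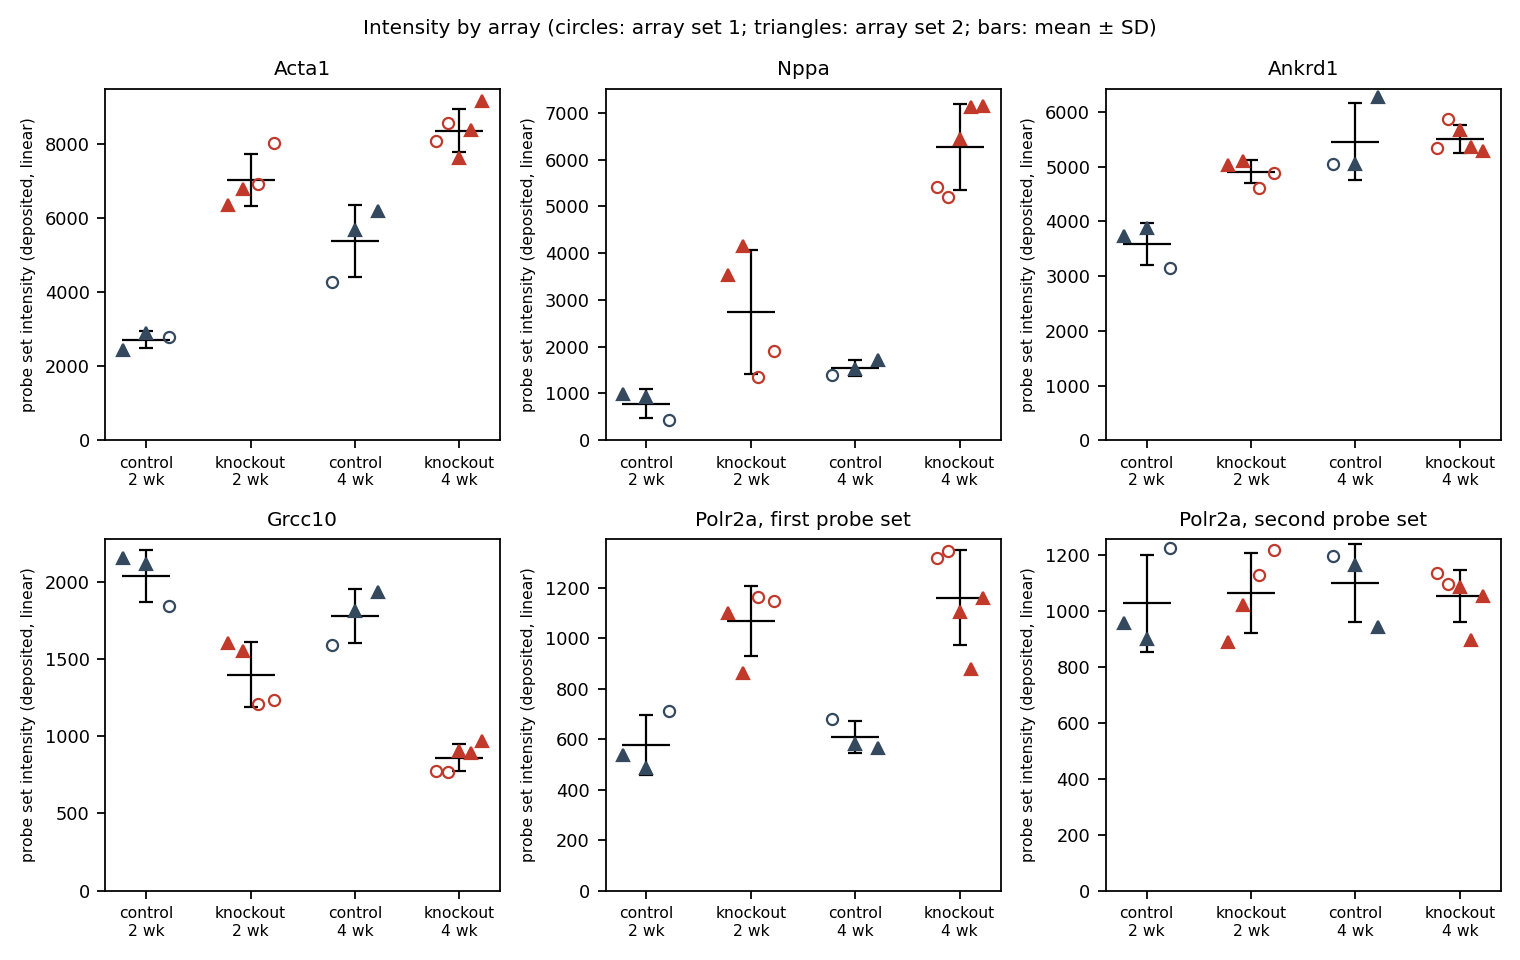
Intensity on a linear scale from 0 for Acta1, Nppa, Ankrd1, Grcc10 and both Polr2a probe sets on all 15 arrays, by group and age. Each point is an array (circles for array set 1, triangles for set 2), and bars give the mean and SD; at 2 weeks the groups are apart in every panel except the second Polr2a probe set, where both span about the same range.

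Acta1, Nppa, Ankrd1 and Grcc10 each had a single probe set, and some genes have several. In a fit to all 12422 probe sets with the array set as a block 7 were called, or 0.0564%. These were the 4 above and 3 outside the gene table, named after their values were seen: 1 of 2 probe sets of Polr2a, and the dim probe sets of Tpm2 and Cyct.

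Polr2a encodes the largest subunit of RNA polymerase II, whose tail is the substrate of the kinase that MAT1 assembles. Its first probe set gave 536, 484 and 710 in control and 1099, 863, 1161 and 1148 in knockout arrays. Every knockout array was above every control array. The difference was 0.88 ± 0.18 without a block (adjusted p = 0.547) and 0.83 ± 0.11 with it (95% interval 0.59 to 1.06, adjusted p = 0.00479), and it was 0.69 within set 1 and 0.91 within set 2. With the block it was called in all 7 fits that left out 1 array (adjusted p 0.00923 to 0.0493). With the replicate number as a block it was not called (0.84 ± 0.13, adjusted p = 0.221). At 4 weeks the same probe set differed by 0.90 ± 0.17 (adjusted p = 0.00512). The other gave 959, 901 and 1227 in control and 890, 1022, 1132 and 1221 in knockout arrays, and its groups overlapped. Its difference with the block was 0.01 ± 0.10 (95% interval −0.20 to 0.22, adjusted p = 0.998), an interval that lies wholly below that of the first probe set. The probe sets of this gene thus disagree, and which part of the transcript each reads was not examined here.

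Tpm2 encodes beta-tropomyosin, a thin filament protein of fetal and slow muscle. Its dim probe set gave 28.9, 18.8 and 50.3 in control and 209, 150.0, 129 and 217 in knockout arrays. Cyct encodes the testis form of cytochrome c, and gave 23.8, 17.1 and 3.49 in control and 98.3, 168, 107 and 113 in knockout arrays. For both the groups did not overlap, with differences with the block of 1.92 ± 0.30 (adjusted p = 0.0226) and 2.31 ± 0.35 (adjusted p = 0.0169). Both calls were lost in 6 of the 7 fits that left out 1 array, and with the replicate number as a block (adjusted p = 0.188 for Tpm2 and 0.57 for Cyct). The sizes at these dim probe sets depend on the pseudocount: without a block Tpm2 differed by 2.00, and by 2.47 with a pseudocount of 1 and 1.31 with 64, and Cyct by 2.20, 3.25 and 1.23. At 4 weeks Tpm2 differed by 2.38 (adjusted p = 0.00108), whereas Cyct did not pass (1.13, adjusted p = 0.168) and 1 control array at that age read 131.

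With the 4 called genes included, 120 genes or 2.42% of those tested had groups that did not overlap, 91 with all knockout arrays higher (1.84%) and 29 with all lower (0.586%). Quantile normalization turned this balance to 57 higher (1.15%) and 82 lower (1.66%), so the split depends on the scaling. The same held for unadjusted p-values under 0.05 with the block, at 202 higher (4.08%) and 69 lower (1.39%) with the deposited scaling and 122 higher (2.46%) and 167 lower (3.37%) after quantile normalization, when 47.6% of differences with the block were above 0. The median difference of all genes was 0.04 as deposited and −0.01 after quantile normalization. Counts of list members below are to be read against these shares. With so few arrays, groups can also lie apart where no difference exists, so groups apart are not by themselves a sign of one.

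The largest of the uncalled differences with groups apart was in Cdkn1a, which encodes the cyclin-dependent kinase inhibitor p21. Its intensity was 303, 313 and 249 in control and 828, 683, 520.3 and 928 in knockout arrays, a difference of 1.29 ± 0.32 (1.30 ± 0.29 with the block, adjusted p = 0.153). A second Cdkn1a probe set differed by 1.03 ± 0.48, with 49.5 to 190.0 in control and 161 to 354 in knockout hearts. Gtf2h1, the p62 subunit of the TFIIH core, had 316, 344 and 285 in control and 587, 423, 460 and 500 in knockout arrays. Its groups were apart with a difference of 0.61 ± 0.15 (0.62 ± 0.13 with the block, adjusted p = 0.125). Ptgds, a prostaglandin D synthase, had 419, 266 and 445 against 659, 655, 512 and 590 (0.68 ± 0.22). The groups of its 2 other probe sets overlapped, with differences of 0.67 and 0.63 with the block, and the second of these was −0.25 within set 1 and 1.31 within set 2.

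The remaining genes apart at an unadjusted p under 0.01 were Ank1, Maip1 and Eef1a1. Ank1, the membrane skeleton protein ankyrin-1, had 1524, 1319 and 1166 in control and 1889, 2127, 1828 and 1943 in knockout arrays (0.58 ± 0.11 with the block, adjusted p = 0.0712). Its other probe sets differed by 0.12 and 0.38 with the block. Maip1, a mitochondrial protein, had 196, 160 and 156 against 299, 273, 206 and 240.5 (0.56 ± 0.12, adjusted p = 0.148). Eef1a1, a translation elongation factor, had 5529, 5320 and 5412 against 6378, 6656, 6216 and 5856 (0.22 ± 0.05, adjusted p = 0.219). Only Grcc10 met the same rule among falls. When only the 7 arrays of this age were fitted with that block, 8 genes were called: the 4 above, Cdkn1a, Ank1, Acta2 and Col8a1.

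**Figure D2:**
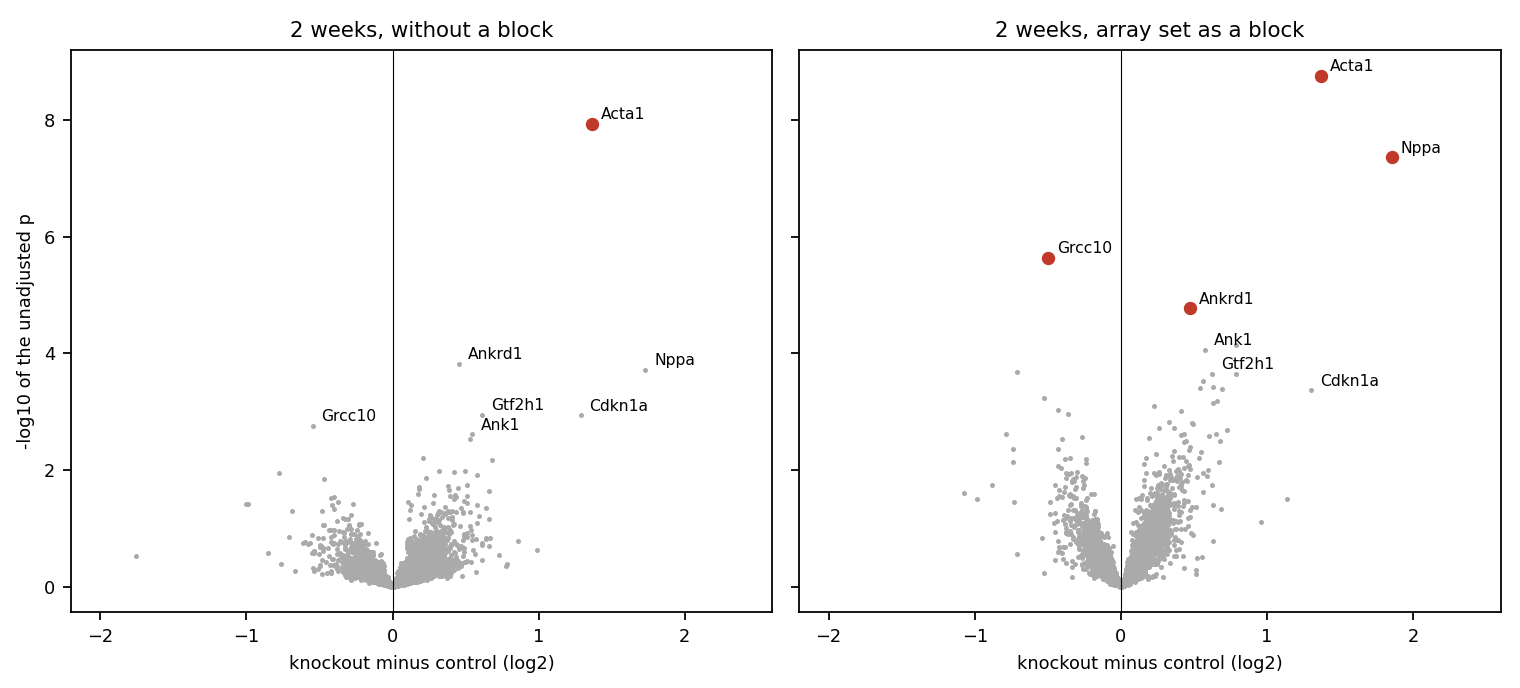
Each point is 1 of the 4950 tested genes; the x axis gives the knockout minus control difference at 2 weeks (log2) and the y axis −log10 of the unadjusted p, without a block on the left and blocked for array set on the right. Red points are the called genes: Acta1 at 1.36 on the left, and Nppa at 1.85, Acta1 at 1.37, Ankrd1 at 0.47 and Grcc10 at −0.50 on the right.

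The targeted gene was read by 2 probe sets that could not check the labels. Both were dim, and their position relative to the deleted segment was not examined here. The one with the higher mean gave 87.9, 120 and 255 in control and 73.1, 111, 296 and 249 in knockout arrays, a difference of 0.16 ± 0.49 (−0.04 ± 0.15 with the block). The other gave 43.0, 41.4 and 86.3 in control and 32.5, 23.7, 52.0 and 33.9 in knockout arrays (−0.47 ± 0.28, and −0.55 ± 0.22 with the block, adjusted p = 0.912). This second probe set was lower in the knockout than in the control arrays of each array set (−0.81 within set 1, −0.41 within set 2). Neither Mnat1 probe set was called, and in both control replicate 3 was the highest control. Cdk7, the kinase itself, was left out of the main test as dim, with 68.3 to 92.0 in control and 61.2 to 109 in knockout hearts (−0.03 ± 0.14 with the block).

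Of the TFIIH and polymerase II kinase genes 6 of 21 were tested, and all 6 differences were above 0 with the deposited scaling (5 after quantile normalization or median scaling), against 60.3% of all genes, both with the block. At an unadjusted p under 0.05 with the block 3 of the 6 were higher and none lower: Gtf2h1, Ccnt1 and Cdk8. Ccnt1, the cyclin of the elongation kinase P-TEFb, had 193, 252 and 188 against 245, 274, 288 and 313 (0.38 ± 0.14). Cdk8, the kinase of the Mediator complex, named after its values were seen, differed by 0.36 ± 0.15. None was called. The list's median difference was 0.29 with the block, against 0.03 over all genes. Among 30 tested genes of RNA polymerase II and the general transcription factors 1 passed the same unadjusted threshold, the elongation factor Ell. It had 366, 382 and 375 against 459, 414, 599 and 509 (0.35 ± 0.11, adjusted p = 0.601). Polr2a stands in this list by its second probe set, which differed by 0.01 with the block. Its first probe set, called with the block among all probe sets, is not counted here.

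Of 15 tested p53 targets and apoptosis genes none was called, and with the block 4 were higher at an unadjusted p under 0.05 and none lower: Cdkn1a, Perp, Zmat3 and Phlda3. Perp, a p53 target at cell junctions, had 957 to 1613 in control and 1181 to 2040 in knockout hearts (0.45 ± 0.14). Zmat3 and Phlda3, p53 targets named after their values were seen, differed by 0.40 ± 0.14 and 0.32 ± 0.14. The median of the list was 0.08, with 10 of 15 above 0, near the 60.3% of all genes. Atf3, a stress-induced transcription factor, had 216, 284 and 222 against 352, 442, 309 and 441 (0.73 ± 0.20, adjusted p = 0.384). It was the only one of 25 genes of the integrated stress and unfolded protein response past the unadjusted threshold. Of 20 immediate-early genes Atf3, Ier3 and Jund passed it, all higher. Ier3 had 757, 781 and 649 against 895, 1088, 989 and 1028 (0.49 ± 0.13).

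Of 22 cytosolic heat shock genes 1 passed the unadjusted threshold, the chaperone gene Hsp90aa1 (0.30 ± 0.11 with the block, 0.19 ± 0.29 without). Of 27 antioxidant genes 3 were higher and none lower, Gpx3, Ephx1 and Gclm. Gpx3, a secreted glutathione peroxidase, had 1275 to 1674 in control and 1557 to 2053 in knockout hearts (0.25 ± 0.10). Ephx1, an epoxide hydrolase, differed by 0.45 ± 0.16 with the block and by 0.15 ± 0.70 without it. Its intensity was 40.4 to 85.0 on the arrays of set 1 and 149 to 244 on those of set 2.

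With the deposited scaling the stress and fetal gene program had the most members past the unadjusted threshold. After quantile normalization with the block oxidative phosphorylation had more, with 1 higher and 11 lower against 8 higher and 2 lower. Of the 23 tested genes of the stress and fetal program 3 were called higher with the block. At an unadjusted p under 0.05, 8 were higher and 1 lower with the block. The list's median was 0.19 (0.15 after quantile normalization), against 0.03 over all genes (−0.01 after quantile normalization), each with the block. The list was drawn up with earlier results of these data known, so its direction is a description. Beside Acta1, Nppa and Ankrd1, the higher members were Nppb, Rcan1, Acta2, Ccn2 and Xirp1, and the lower one was Myl7. Rcan1, a calcineurin inhibitor induced by calcineurin signalling, had 1091, 1005 and 797 against 1910.4, 1467, 885 and 1409 (0.55 ± 0.17, adjusted p = 0.552). Acta2, smooth muscle actin, which the fetal heart also makes, had 3423, 3558 and 2786 against 5471, 5120.4, 4096 and 4792 (0.63 ± 0.15, adjusted p = 0.21). Xirp1, an intercalated disc protein named after its values were seen, differed by 0.36 ± 0.10. The myosin heavy chains, which switch in the failing heart, were not called. On its brighter probe set Myh7, the slow form, had 7504 to 7647 in control and 7085 to 8255 in knockout hearts. It differed by −0.02 ± 0.07 with the block (95% interval −0.17 to 0.14), and Myh6 by −0.06 ± 0.04 (−0.14 to 0.03). A second Myh7 probe set gave 817, 937 and 821 in control and 1308, 1523, 865 and 981 in knockout arrays. In each array set its knockout arrays lay above its controls. It differed by 0.44 ± 0.20 with the block, 0.16 within set 1 and 0.68 within set 2, and was not called. Which of these Myh7 probe sets reads the gene better was not tested.

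Contractile and calcium genes had no call. Of 16 tested sarcomere genes 4 were higher and none lower at an unadjusted p under 0.05 with the block (3 and 1 after quantile normalization). Actn2, alpha-actinin of the Z-disc, had 3693 to 4749 against 4075 to 5271 (0.18 ± 0.06). Tnnc1, cardiac troponin C, had 6158 to 6543 against 6742 to 7957 (0.16 ± 0.06), with groups apart. Of 23 genes of calcium handling and ion channels none was higher and 2 were lower with the block at this threshold, Ryr2 and Hrc (4 after quantile normalization). Ryr2, the calcium release channel of the sarcoplasmic reticulum, had 2970 in the first control array, 3230 in the second and 2637 in the third, against 2383, 2507, 1955 and 1947 in knockout hearts. All knockout arrays were below all controls, and the difference of −0.36 ± 0.09 with the block had an adjusted p of 0.259. Hrc, a calcium-binding protein of the same compartment, had 2732 to 3428 against 2153 to 2938 (−0.27 ± 0.08, adjusted p = 0.404). Of 15 cardiac transcription factors Irx3 alone passed the unadjusted threshold, with 228, 322 and 337 against 226, 204, 259 and 184 (−0.42 ± 0.17).

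Matrix genes, of which 31 of 43 were called higher at 4 weeks without a block (6.59% of all genes were), had no call at 2 weeks. With the block 6 of the 43 were higher at an unadjusted p under 0.05 and none lower, and the median difference was 0.12, against 1.13 at 4 weeks without a block. After quantile normalization with the block 3 of the 43 were higher and the median was 0.07. Col8a1, a short-chain collagen of remodelling tissue, had 322, 301 and 132 against 663, 510.4, 215 and 248, so that the arrays of set 1 were low in both groups (0.79 ± 0.17 with the block, adjusted p = 0.125). Dcn, the proteoglycan decorin, had 4999 to 5426 against 5742 to 6059, with groups apart (0.20 ± 0.06). The interstitial collagens differed by 0.14 ± 0.16 for Col1a1 and 0.10 ± 0.13 for Col3a1 with the block, with intervals of −0.19 to 0.47 and −0.17 to 0.36. Postn and Timp1, induced in the injured heart, differed by 0.08 ± 0.26 and 0.14 ± 0.23.

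Of 22 growth factor genes around TGF-beta 3 were higher with the block at an unadjusted p under 0.05, none was lower and none was called. Ccn2, connective tissue growth factor, had 1266, 1039 and 607 against 1571, 1584, 986 and 1542 (0.69 ± 0.15, adjusted p = 0.153). Knockout replicate 3 lay far below the other knockout arrays. Tgfb2, a ligand of the family, had 117, 120 and 65.2 against 152, 169, 87.1 and 101 (0.42 ± 0.13, adjusted p = 0.601). The third, Igf1r, the receptor of insulin-like growth factor 1, was named after its values were seen and differed by 0.25 ± 0.11.

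Energy metabolism showed no call at 2 weeks. Of 26 genes of fatty acid uptake and oxidation Etfb was lower and none higher at an unadjusted p under 0.05 with the block. Etfb, which passes electrons from fatty acid oxidation to the respiratory chain, had 3801, 3989 and 3618 against 3265, 3462, 2841 and 3036, with all knockout arrays lower (−0.24 ± 0.08, adjusted p = 0.641). The median of these 26 genes was −0.06 with the block, and 7 of 26 were above 0, against 60.3% of all genes. At 4 weeks 16 of them were called lower without a block (4.61% of all genes were). None of 23 genes of the citric acid cycle and pyruvate dehydrogenase passed in either direction. Of 56 oxidative phosphorylation genes Cox8b alone passed, upward (0.16 ± 0.06). With the block 13 of the 56 differences were above 0, against 60.3% of all genes, and the median was −0.04. After quantile normalization with the block 11 of the 56 were lower at this threshold and the median was −0.10, so this list's count depends on the scaling.

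At an unadjusted p under 0.05 with the block, 3 of 15 ATP transfer and 1 of 20 glycolysis genes were higher and none lower. Over all genes 4.08% were higher and 1.39% lower. After quantile normalization with the block ATP transfer had 2 higher and 1 lower, and glycolysis none higher and 1 lower. Slc6a8, the creatine transporter, Ckb, the brain form of creatine kinase, and the oxygen store myoglobin (Mb, named after its values were seen) were the 3 of 15 ATP transfer genes past the unadjusted threshold, at 0.30 ± 0.10, 0.38 ± 0.14 and 0.12 ± 0.05. Eno3, the muscle enolase, had 5050.5, 5482 and 5243 against 6063, 6139, 6141 and 6283, with groups apart and little spread in the knockout (0.24 ± 0.07, adjusted p = 0.577). It was the only one of 20 glycolysis genes to pass. None of 17 energy regulators passed. Ppara and Esrra, nuclear receptors of energy metabolism, differed by −0.08 ± 0.13 and 0.06 ± 0.11, with intervals of −0.36 to 0.20 and −0.17 to 0.28. Their coactivator gene Ppargc1a was left out as dim, and in the fit to all genes it differed by 0.55 ± 0.17 with the block (adjusted p = 0.676), with 61.3 to 173 in control and 109 to 197 in knockout hearts.

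Markers of cell types were set beside these values, since in whole hearts fewer cells of a type and less RNA per cell cannot be told apart. Summed intensities of a wider list of 17 heart muscle markers ran from 90049 to 98353 in control and from 91004 to 96319 in knockout hearts. Of these, 16 were tested and none was called. At an unadjusted p under 0.05 with the block 2 were higher, Mb and Myl2 (named after its values were seen). Ryr2 and Hrc were the 2 lower. Over all genes 4.08% were higher and 1.39% lower. After quantile normalization with the block 1 heart muscle marker was higher and 3 were lower. No marker list had a gene at the floor on all 2-week arrays. None of the tested endothelial (16), macrophage (12), lymphocyte (8), adipocyte (7), skeletal muscle (9) or neural (4) markers passed an unadjusted p under 0.05 with the block. Of 14 fibroblast markers Dcn passed, of 12 smooth muscle and pericyte markers Acta2, of 5 erythroid markers Epb42 (lower, −0.41 ± 0.17) and of 7 lung and thymus markers Sftpd. Sftpd, surfactant protein D of the lung, had 259, 260.3 and 193 against 386, 400.2, 276 and 311, with groups apart (0.54 ± 0.12, adjusted p = 0.153).

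Skeletal muscle markers bear on Acta1, which is also the main actin of skeletal muscle. Their summed intensity ran from 9182 to 9983 in control and from 8610.1 to 11701 in knockout hearts, so the groups overlapped, and 4 of the 9 tested were above 0 with the block. The widest difference among them was in Myl1, the fast skeletal and embryonic cardiac light chain, named after its values were seen (0.96 ± 0.51 with the block, unadjusted p = 0.0791). It had 666, 853 and 810.1 in control and 1932, 2248, 2809 and 319 in knockout arrays, so that knockout replicate 4 was the lowest array and the other 3 knockout arrays were above all controls. In array set 2 alone Myl1 was called (1.45 ± 0.18, adjusted p = 0.006), as were Acta1 and Nppa, and in set 1 it differed by 0.24 ± 1.05. For Acta2, summed smooth muscle and pericyte markers ran from 10467 to 13048 in control and from 12335 to 16181 in knockout hearts, with 11 of 12 above 0 with the block (9 after quantile normalization). Summed fibroblast markers ran from 18809 to 25639 and from 20252 to 31182. Their part in these results was not tested.

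No member of the cell cycle (18 genes), protein turnover and muscle atrophy (36) or interferon (3) lists passed the unadjusted threshold with the block. Of 10 imprinted and postnatal growth genes Gnas, a G protein subunit, passed upward (0.16 ± 0.05). After quantile normalization with the block the antioxidant, ATP transfer and TGF-beta lists had 2 higher and 1 lower, glycolysis had none higher and 1 lower, and the imprinted list had none. The fatty acid and erythroid lists then had 2 lower, and the citric acid cycle, energy regulator and protein turnover lists 1 lower each. The p53 list then had 3 higher and the immediate-early list 2, with none lower, and their medians were 0.02 and −0.002.

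**Figure D3:**
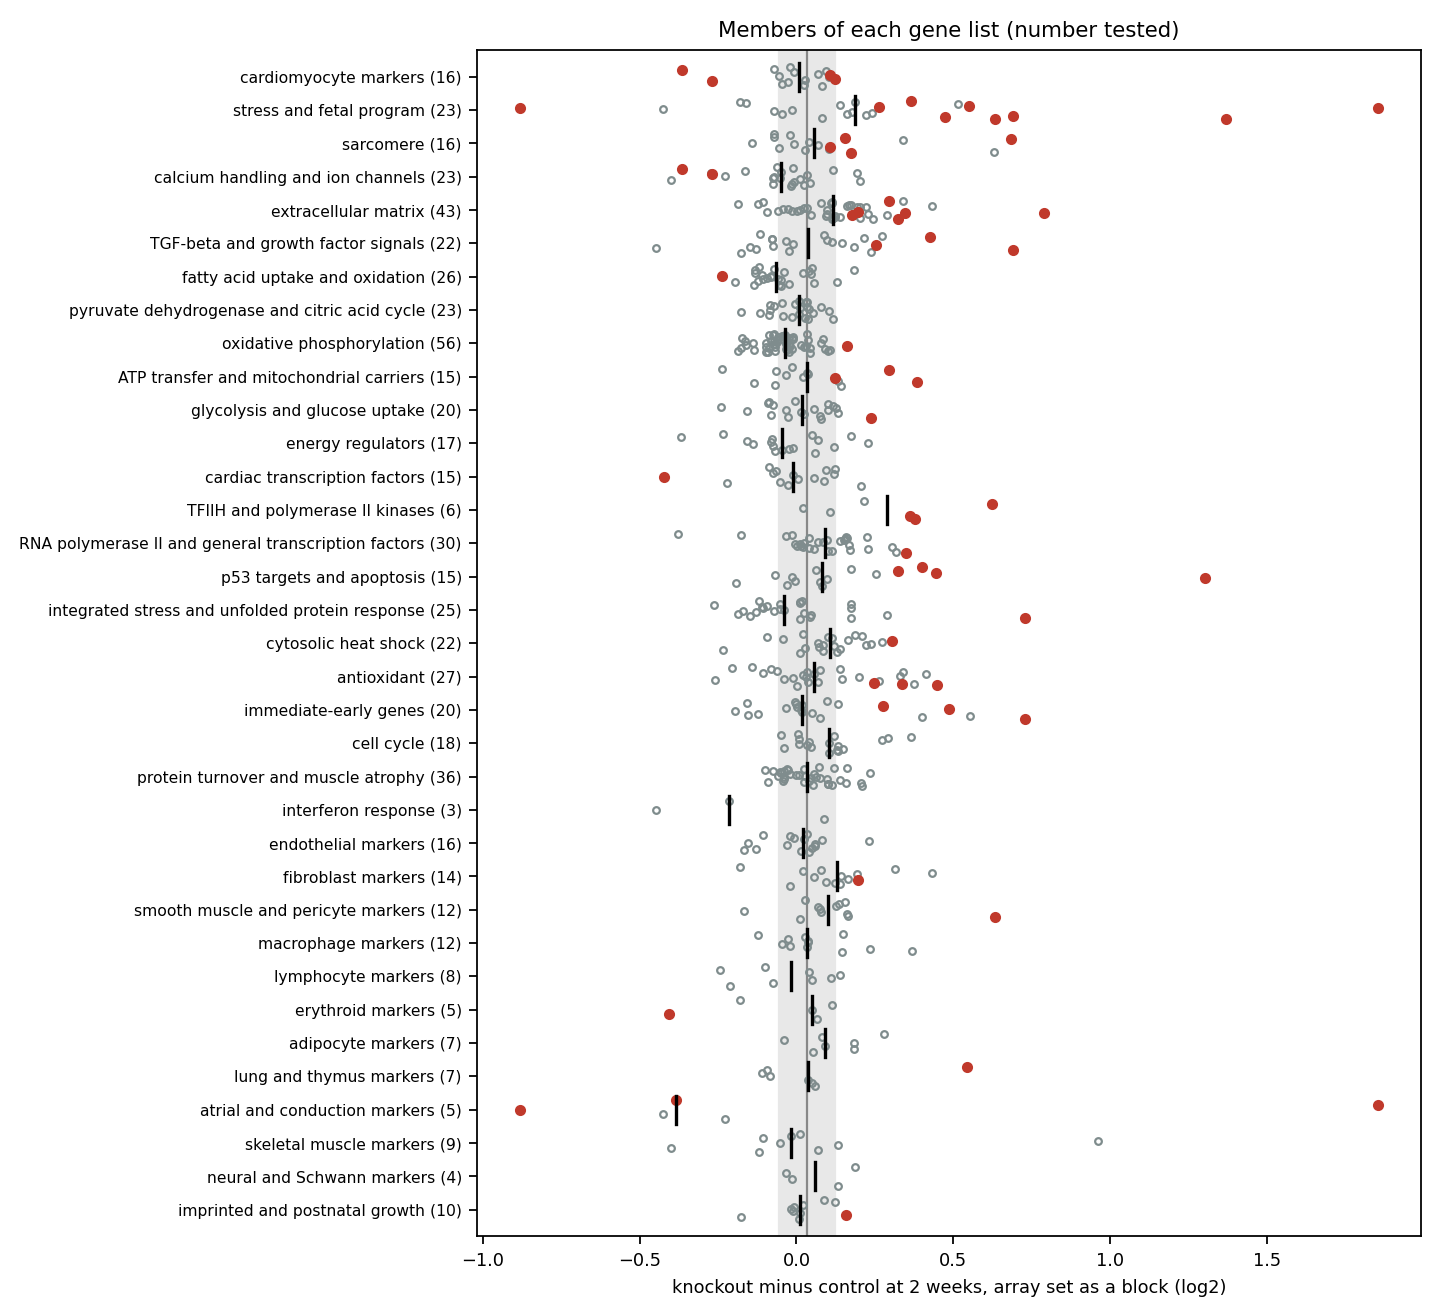
Knockout minus control difference at 2 weeks with the array set as a block (x axis, log2) for the tested members of 35 gene lists (rows, number tested in brackets). Each point is a gene, red where its unadjusted p was under 0.05, black bars are list medians, and the grey line and band are the median (0.03) and the middle range between quartiles (−0.06 to 0.12) of all 4950 genes; the stress and fetal program has a median of 0.19 and the TFIIH list one of 0.29.

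The difference between the ages was tested directly, since the arrays of 2 and 4 weeks are separate. At 4 weeks 554 of the 4950 genes were called, or 11.2%, against 1 at 2 weeks, and the median size of a difference was 0.23 against 0.11. The knockout effect differed between the ages in 77 genes (1.56%), and in 616 (12.4%) when blocked for array set. Blocks for array set and inferred sex, which was split unevenly between the groups at 4 weeks, gave 450. Median scaling left 7. Of the 2-week arrays, leaving out control replicate 1 gave 25, control replicate 2 gave 38, knockout replicate 3 gave 47 and knockout replicate 4 gave 45. Of the 4-week arrays, leaving out control replicate 2 gave 20, control replicate 3 gave 25 and knockout replicate 3 gave 49. With the block the count was 367 without control replicate 1 and 404 without control replicate 3 of 2 weeks. It was 405 without control replicate 2 and 406 without control replicate 3 of 4 weeks. The highest counts with 1 array left out were 75 for a 2-week and 83 for a 4-week array without a block. With the block these were 569 and 707, so the size of the count depends on single arrays.

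Acta1 was the only gene called at 2 weeks whose difference changed between ages without a block. It was 0.65 ± 0.11 at 4 weeks (adjusted p = 0.00157), and the change between ages was −0.72 ± 0.16 (adjusted p = 0.0386). Its 4-week intensity was 4292, 5687 and 6187 in control and 7631 to 9176 in knockout hearts, so the controls were higher than at 2 weeks, while the knockout arrays of the 2 ages partly overlapped. Ankrd1 also had higher controls at 4 weeks than at 2. It had 5058, 5045 and 6275 in control and 5284 to 5878 in knockout hearts at that age, a difference of 0.02 ± 0.09, and the change between ages was −0.44 ± 0.12 (adjusted p = 0.114) and −0.45 ± 0.11 with the block (adjusted p = 0.0121). Nppa differed by 2.00 ± 0.33 at 4 weeks (adjusted p = 0.00126), and the change between ages was 0.27 ± 0.48 (adjusted p = 0.999). Grcc10 differed by −1.03 ± 0.14 at 4 weeks (adjusted p = 0.000216), with a change of −0.49 ± 0.20 that was called only with the block (−0.51 ± 0.09, adjusted p = 0.00242).

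Of the 48 tested genes named here 8 had a difference between ages without a block, and 29 with the array set blocked. Ptgds had opposite signs, 0.68 ± 0.22 at 2 weeks and −1.22 ± 0.21 at 4 weeks, where controls read 1881 to 3235 and knockout arrays 936 to 1334. Col1a1 went from 0.07 ± 0.23 to 1.68 ± 0.22, Tgfb2 from 0.29 ± 0.34 to 3.27 ± 0.32 and Gpx3 from 0.22 ± 0.14 to 1.57 ± 0.13. Hrc went from −0.23 ± 0.13 to −1.57 ± 0.12, Rcan1 from 0.51 ± 0.21 to 1.84 ± 0.20 and Eef1a1 from 0.21 ± 0.07 to 0.63 ± 0.06. Cdkn1a was 1.29 ± 0.32 and 3.02 ± 0.30 (change 1.73 ± 0.44, adjusted p = 0.0688, and 1.72 ± 0.40 with the block, adjusted p = 0.0111), and Gtf2h1 was 0.61 ± 0.15 and 0.72 ± 0.14 (adjusted p of the change 0.999).

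**Figure D4:**
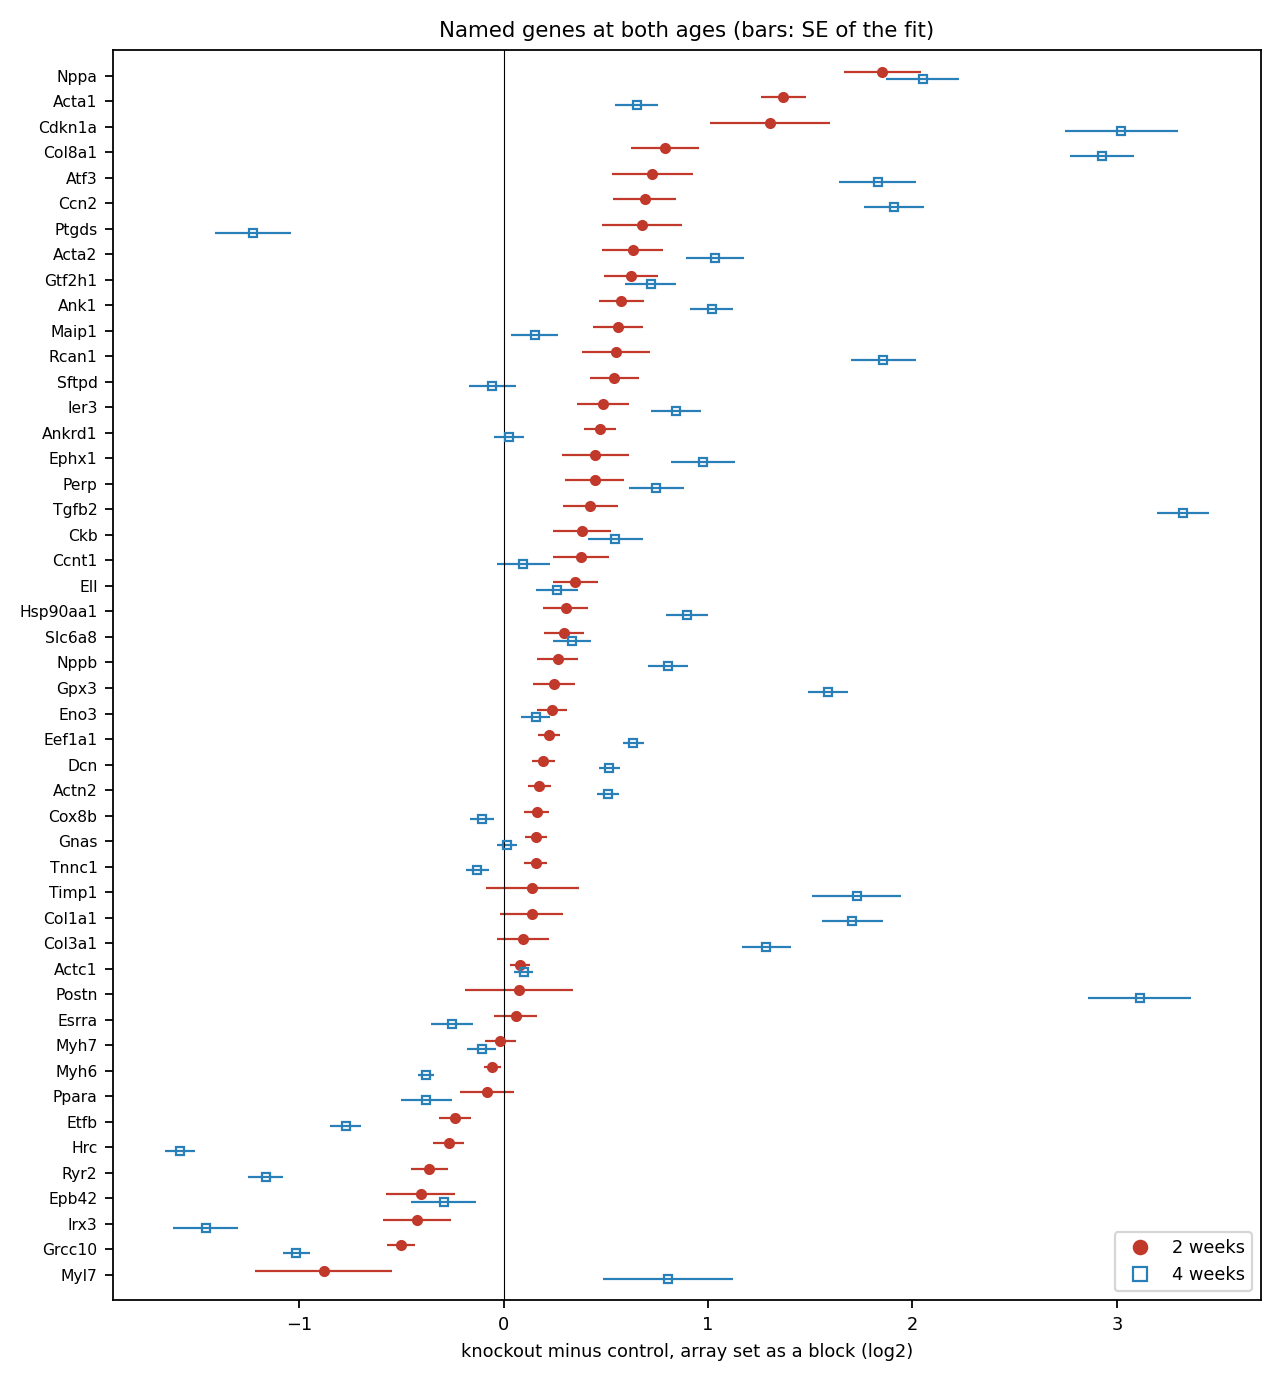
Knockout minus control difference (x axis, log2) at 2 weeks (red circles) and 4 weeks (blue squares) for the 48 tested named genes, with the array set as a block; bars are standard errors of the fit. Acta1 and Ankrd1 lie farther right at 2 weeks, Nppa overlaps at both ages, and Col1a1 and Postn lie within 1 standard error of 0 at 2 weeks and at 1.71 and 3.11 at 4 weeks.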

How the data were processed

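RNA of mouse hearts was measured on 15 one-colour arrays. The values are the authors' deposited intensities, 1 per probe set and array on a linear scale, and the sources used here give neither software nor background correction nor scaling. They were used without further scaling as log2(intensity + 16), so that differences of dim genes are understated. Symbols came from the platform annotation, which gave 1 symbol to 10833 of 12422 probe sets, several to 396 and none to 1193, and 10817 were updated by gene ID through RefSeq (GRCm38.p6). Each of 8251 genes took the single-symbol probe set of highest mean, and the dimmest 40% were left out, which left 4950.

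Tests used limma 3.58.1 in R 4.3.3 (moderated, two-sided, trend on intensity, 1 coefficient per group over all 15 arrays, Benjamini-Hochberg over the 4950 genes). Values of Mnat1, Cdk7 and Ppargc1a come from the same fit to all 8251 genes, and those of single probe sets of Polr2a, Tpm2, Cyct and the second Mnat1 probe set from that to all 12422 probe sets. Errors are standard errors of the fit unless named SD. The fit was tested on simulated data. The array set was defined from the values by average linkage. The 35 gene lists (934 genes, 757 with a probe set, 579 tested, 4 matched by synonym) and the comparison were chosen with earlier results of these data known. Named were genes called in either fit, those apart with an unadjusted p under 0.01 (up to 10 a direction), up to 2 per list that had the smallest p under 0.05 with the block, and a fixed set of transcription, stress, metabolic and matrix genes.

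Replicate numbers are shared by the groups. Deviations from the group mean correlated at 0.81, 0.67 and 0.89 in the 3 same-numbered pairs at 2 weeks, and at 0.26, −0.06 and 0.03 once the array set was removed, so the numbers pair these samples with the array set. At 4 weeks 1 of the pairs was at −0.55, and the numbers do not pair that age. No 2 arrays of this age were copies: above the floor of 0.95, any 2 shared their value at no more than 0.0242% of probe sets. The number of arrays limits the precision. Alternatives covered normalization, pseudocount, filter, probe set choice, blocks, array weights (estimated gene by gene) and each 2-week array left out (for the test between ages, each of the 15). Fits with the block to all probe sets or without the filter, and those that left out a 4-week array, were chosen after seeing the data.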

Additional observations from a re-analysis of the deposited data

Results flagged for a closer look

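One knockout array stood apart from the others of its group for Ccn2. Knockout replicate 3 read 986, while the other 3 knockout arrays lay between 1542 and 1584. Its gap to the nearest array was 0.943 of the group's range, above Dixon's 95% critical value for 4 arrays. Of the 56 genes and probe sets tested this was the only one with such an array, and chance flags about 1 in 20 groups. The array belongs to array set 1, in which the control array also read lowest for Ccn2, at 607.

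The knockout effect differed between 4 and 2 weeks, by limma's test of the difference without a block, in 8 of 48 named genes (29 of 48 when blocked for array set). The effect at 4 weeks minus that at 2 weeks was −0.72 for Acta1, −1.91 for Ptgds, 0.42 for Eef1a1, −1.34 for Hrc, 2.98 for Tgfb2, 1.36 for Gpx3, 1.33 for Rcan1 and 1.61 for Col1a1 on the log2 scale, all without a block. Ptgds is the one of these with opposite signs at the 2 ages.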

How the results depend on the processing

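The number of arrays limits what could be seen. With 7 arrays of this age the median 95% half-width was 0.51, or 0.28 with the array set as a block. For a typical gene only a difference larger than this could be called, while genes with less spread could pass with a smaller one. Array sets were defined from the values. The deposited scaling is unknown, and it decides the balance of small rises and falls. Of 56 genes and probe sets, 43 kept their sign under each of 32 alternatives and 13 did not. Over the 1766 values compared, 1672 had the sign of the reported value and 94 the opposite one. Acta1 was called in all 7 fits that left out 1 array of this age, with and without the block.

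At 2 weeks 1 gene was called. Quantile normalization gave 2 (Acta1 and Ankrd1), the array set as a block 4, set 2 alone 3 (Acta1, Myl1 and Nppa), the block with quantile normalization 4, blocks for array set and inferred sex 4, and the 2-week arrays alone with the block 8. The block without a filter gave 6 and the block over all probe sets 7, both chosen after seeing the data. Leaving out 1 array of this age gave 1 to 4. Without a block, Nppa was called when knockout replicate 3 was left out (adjusted p = 0.0454). The replicate block, in which knockout replicate 4 has no partner, gave 2 genes at 2 weeks (Acta1 and Nppa). Against the fit without a block it added Nppa, and the calls of Ankrd1, Grcc10, Tpm2, Cyct and the first Polr2a probe set made with the array set as a block were not made with it. For the difference between ages it gave 175, but at 4 weeks the samples numbered 2 lie in different array sets (correlation of deviations −0.55), so the numbers do not pair that age.

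For the difference between ages, 77 genes were called. Median scaling gave 7, the array set as a block 616, set 1 alone 297, set 2 alone 358, the block with quantile normalization 648, blocks for array set and inferred sex 450, array weights 360, the block without a filter 614 and the block over all probe sets 683. Leaving out 1 of the 15 arrays gave 20 to 707: without a block 25 to 75 for the 2-week and 20 to 83 for the 4-week arrays, and when blocked for array set 367 to 569 and 405 to 707. The 4-week arrays were left out for this count alone, an alternative chosen after seeing the data.

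Signs turned in 13 differences, none of them called with or without that block, and the cause was not tested. With the array set as a block Cdk7 was −0.027, Postn 0.077 and the Mnat1 probe set with the higher mean −0.038, and these values were the same without a filter and over all probe sets. With blocks for array set and inferred sex these 3 were −0.031, 0.13 and −0.043. The 2-week arrays alone with the block gave −0.024, 0.18 and −0.061, and −0.0031 for the second Polr2a probe set. The replicate block gave −0.053 for Cdk7, 0.20 for Postn, −0.038 for that Mnat1 probe set, 0.0085 for Myh7 and −0.015 for the second Polr2a probe set. The block with quantile normalization gave −0.054 for the second Polr2a probe set and −0.025 for Mnat1. Set 2 alone gave −0.17 for Cdk7, 0.053 for Myh7, −0.019 for Esrra, −0.013 for Timp1, 0.42 for Postn and −0.16 for Mnat1. Set 1 alone gave 0.11 for Ppara, −0.034 for Col3a1 and −0.062 for the second Polr2a probe set. Quantile normalization gave −0.011 for Col3a1. Median scaling gave −0.0043 for Cdk7, −0.048 for Col3a1 and −0.0038 for the second Polr2a probe set. The mean of a gene's probe sets gave −0.30 for Hsp90aa1, 0.19 for Myh7, −0.0094 for Esrra, −0.074 for Col3a1 and −0.012 for Timp1. Array weights gave −0.033 for Hsp90aa1, −0.30 for Ephx1, −0.011 for Esrra, −0.10 for Col1a1 and −0.16 for Col3a1.

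Leaving out 1 array of 2 weeks, with or without the block, gave −0.13 to 0.18 for Cdk7, −0.65 to 0.25 for Postn, −0.13 to 0.56 for the Mnat1 probe set with the higher mean, −0.14 to 0.017 for Ppara, −0.035 to 0.18 for the second Polr2a probe set, −0.11 to 0.40 for Hsp90aa1, −0.44 to 0.57 for Ephx1, −0.022 to 0.30 for Nppb, −0.034 to 0.12 for Esrra, −0.15 to 0.22 for Col1a1, −0.20 to 0.19 for Col3a1 and −0.069 to 0.0085 for Myh7.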
